A study of Mus musculus with 6 samples.

Results

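The genes described here encode laminins, nidogens and perlecan, the glycoproteins that, with collagen IV, form the basement membrane around vessels and muscle fibres. The 10 genes, Lama2, Lama3, Lama4, Lama5, Lamb1, Lamb2, Lamc1, Nid1, Nid2 and Hspg2, were taken by symbol from the 17714 genes of the deposited table, and each was found once. RNA was sequenced in 6 libraries from wild-type mouse heart, labelled as lymphatic endothelial cells, at day 3 after a sham operation (3 libraries) or after myocardial infarction (MI, 3 libraries). No other allele, treatment or agent is named for either group, and the age of the animals is not given in the labels. The labels speak of heart tissue or of primary endothelial cells without saying which was used, mention growth in medium with serum, and name no sorting step. Whether each library came from its own animal is not stated, so p-values rest on a spread between libraries that may be technical.

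A laminin is a trimer of an alpha, a beta and a gamma chain. Many of the trimers, though not all, are cross-shaped and join through their short arms into a sheet. Laminins bind integrins and dystroglycan at the cell surface through the end of the alpha chain. Nidogens hold on to the laminin gamma1 chain and to collagen IV, and perlecan, a large heparan sulfate proteoglycan, adds a further link and stores growth factors. In the heart, endothelial cells, mural cells, fibroblasts and cardiomyocytes all contribute to these membranes, while lymphatic capillaries have a thin and discontinuous one.

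Library depth followed the group, with 3206732 to 3591473 estimated counts in sham and 21154342 to 21689333 in MI. Any batch tied to the groups and the operation itself cannot be told apart. With the MI counts thinned to the sham depth, all 10 genes were still called lower. Markers of the labelled cell type were unequal in level. Prox1, the transcription factor that defines lymphatic endothelium, was at 1.65 to 1.90 TPM (a level corrected for transcript length and library size) in sham and 0.18 to 0.41 TPM in MI. Pecam1, a junction protein of all endothelial cells, was at 931 to 948 and at 196 to 213 TPM. Lyve1, a hyaluronan receptor of lymphatic vessels and some macrophages, was at 156 to 162 TPM in sham and 7.26 to 9.23 TPM in MI, and the chemokine gene Ccl21a at 133 to 172 and 15.0 to 17.1 TPM. Flt4, the receptor for lymphatic growth factors, was at 21.0 to 23.5 TPM in sham and 7.78 to 9.20 TPM in MI. Of 7 lymphatic markers 6 fell and 1 rose (median log2 fold change -2.48), against 36.9% and 36.4% of all tested genes. The 1 that rose was Pdpn, 40.8-fold, at 4.18 to 5.99 TPM in sham and 183 to 201 TPM in MI. Both groups also held markers of cardiomyocytes, mural cells, fibroblasts and macrophages. The values below therefore describe a mixture of cells, and each is relative to all RNA of its library. Fewer cells of a type, less RNA per cell and more RNA from other cells cannot be told apart in such libraries.

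RefSeq promoter windows on GRCm38.p6 matched 6 of the 10 genes (Lama2, Lama5, Lamb1, Lamb2, Nid1 and Hspg2). Of these, 3 are shown, chosen with their values known. Hspg2 had the highest level of the 10 genes, Lamb2 the largest fall, and Lama5 the highest G and C content of the 6 windows. Each stretch is the portion of the RefSeq window that lies outside the gene's RefSeq span and outside annotated exons, and is written 5′ to 3′ on the gene's strand, with the GC box (GGGCGG, either strand) in capitals.
Hspg2 chr4:137468553-137468750 (plus strand): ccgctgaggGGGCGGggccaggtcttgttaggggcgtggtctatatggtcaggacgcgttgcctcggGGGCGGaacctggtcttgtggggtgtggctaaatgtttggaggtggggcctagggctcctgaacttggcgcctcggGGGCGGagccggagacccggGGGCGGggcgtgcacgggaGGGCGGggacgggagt
Lama5 chr2:180225905-180226109 (minus strand): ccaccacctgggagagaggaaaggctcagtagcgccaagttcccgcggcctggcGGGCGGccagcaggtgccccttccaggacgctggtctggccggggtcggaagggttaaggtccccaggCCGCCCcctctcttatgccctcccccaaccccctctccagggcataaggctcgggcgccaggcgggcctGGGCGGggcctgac
Lamb2 chr9:108479612-108479735 (plus strand): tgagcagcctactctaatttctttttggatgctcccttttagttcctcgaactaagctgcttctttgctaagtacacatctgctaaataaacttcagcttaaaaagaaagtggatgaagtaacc
In the 250 bases before the transcript start used for each window, the Hspg2 window held 5 GC boxes, the Lama5 window 4 (3 of them in the printed stretch), Lamb1 2 and Nid1 1, while the letters were not in the windows of Lama2 and Lamb2. All but 1 base of the Lama2 window lies inside the RefSeq span of that gene, so it is not upstream of the outermost start. The stretch outside the RefSeq span and annotated exons was 198 bases for Hspg2, 205 for Lama5, 124 for Lamb2, 199 for Nid1 and 103 for Lamb1. For Lamb1 that stretch held 0 of the 2 GC boxes. The GC box was in 32.7% of all 32851 promoter windows of that length, and 3 or more of them were in 8.47%. The G and C content was 72.4% for Lama5, 64.4% for Nid1 and 43.6% for Lamb2, against a median of 52.4% over all windows. An ETS core (CCGGAAG), an AP-1 site (TGANTCA) and a TATA box (TATAAA), each searched on both strands, were in none of the 6 windows, and in 6.91%, 6.75% and 12.4% of all windows. These matches are a description of the letters only, and a link between them and the falls was not tested.

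Transcripts of all 10 genes were lower in MI than in sham. The falls ran from 1.39-fold for Lamc1 to 3.16-fold for Lamb2, with a median log2 fold change of -1.20 against -0.01 over all 13370 genes tested. All were called by the quasi-likelihood test of edgeR at a Benjamini-Hochberg threshold of 0.05 over every gene tested, and 6 were at least 2-fold lower. Across the table, 36.9% of genes were called lower and 21.2% were called and at least 2-fold lower. In a stricter test, of whether the fold change exceeded 2, 4 of the 10 were called lower (Lamb2, Lama4, Nid1 and Lama2), against 15.3% of all genes called lower and 15.9% higher. All 10 also had groups of libraries that did not overlap, as did 38.1% of all tested genes in this direction. Summed over the 10 genes, the level was 633 to 701 TPM in sham and 258 to 311 TPM in MI. Fold changes are on counts scaled to library size by TMM (CPM), and levels are in TPM, whose falls were somewhat larger. The genes also kept this direction with libraries scaled to total counts, where the median of all genes was -0.36 and that of the 10 was -1.55.

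**Figure D1:**
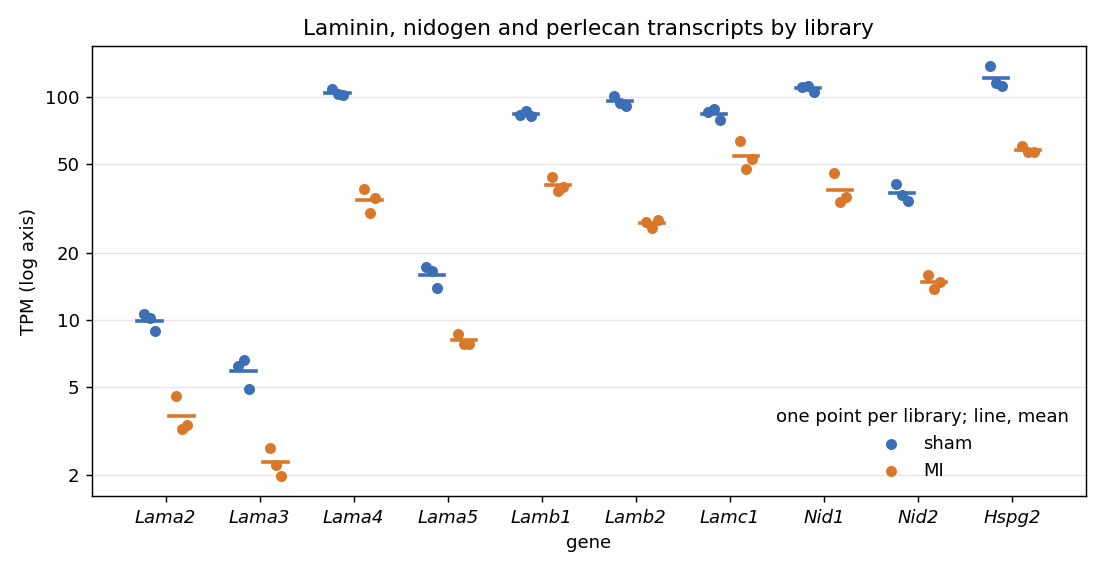
TPM (log axis) of the 10 genes, with 1 point per library and a line at the mean of each group of 3. At every gene the 3 MI points lie below the 3 sham points, with the narrowest gap at Lamc1 (78.7 TPM in the lowest sham library, 63.3 TPM in the highest MI library).

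Among the alpha chains, which decide the receptor a laminin can bind, Lama4 was by far the most abundant. It encodes the alpha4 chain of vessel and muscle basement membranes and lies on chromosome 10 from 38965515 to 39110188 (GRCm38.p6, protein coding, as are all 10 genes). Its level was 108.66, 102.98 and 101.87 TPM in the 3 sham libraries and 38.63, 30.06 and 35.02 TPM in the 3 MI libraries. The sham libraries were close to each other, and the groups were far apart. Lama4 fell 2.71-fold, from 332 ± 11.3 to 122 ± 8.19 CPM (mean ± SD, n = 3; log2 fold change -1.44 ± 0.08, SE; edgeR adjusted p = 1.33e-08).

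Lama5 encodes the alpha5 chain, the other main laminin alpha chain of vessel walls and also one of epithelia (chromosome 2, 180176373 to 180225904). Its level was 17.23, 16.52 and 13.84 TPM in sham and 8.64, 7.81 and 7.76 TPM in MI, so that sham 3 was the lowest sham library and still above all of MI. The fall was 1.76-fold (log2 fold change -0.82 ± 0.10, SE), the second smallest of the 10 after Lamc1. Lama2 encodes the alpha2 chain of the sheath around heart and skeletal muscle fibres (chromosome 10, 26981285 to 27617191). It stood at 10.65, 10.17 and 8.85 TPM in sham and at 4.53, 3.23 and 3.35 TPM in MI, where MI 1 was the highest of the MI libraries. Lama2 fell 2.41-fold (log2 fold change -1.27 ± 0.13, SE).

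Lama3, on chromosome 18 from 12333417 to 12583013, encodes the alpha3 chain, best known from the anchoring laminin of epithelia. It was the lowest of the 10, at 6.19, 6.56 and 4.90 TPM in sham and 2.64, 2.23 and 1.99 TPM in MI, on 248 counts over the sham libraries and 515 over the MI libraries. The fall was 2.37-fold (log2 fold change -1.24 ± 0.17, SE, the widest error of the 10; edgeR adjusted p = 3.19e-05). Named outside the rule for named genes, Lamb3, whose product pairs with the alpha3 chain in that epithelial laminin, averaged 0.443 TPM in sham and 0.510 TPM in MI and did not pass the test. The ratio of Lama3 counts to its TPM, which reflects the transcript length the authors used, varied by 16.0% over the libraries relative to that of Lamc1. For the other genes it varied by at most 1.35%, so the TPM of Lama3 depends most on how its transcripts were resolved. The epithelial and mesothelial marker list summed to 18.5 to 25.5 TPM in sham and 7.82 to 8.42 TPM in MI. Of its 4 tested members, 3 were lower and 1 was higher, against 36.9% and 36.4% of all tested genes. The 3 were the mesothelial genes Wt1 (mean 13.2 TPM in sham and 4.11 TPM in MI), Upk3b (3.41 and 0.567) and Msln (2.78 and 0.597). The 1 was the epithelial gene Cdh1, 33.3-fold higher, on 1 count in sham and 184 in MI. Epcam, Krt8, Krt18 and Krt19 were not tested. Mean TPM was lower in MI for Krt8 (0.467 and 0.160) and Krt19 (2.13 and 0.517) and higher for Krt18 (0.473 and 0.773). Epcam was at 2 counts over the sham libraries and 13 over the MI libraries. The part of epithelial and mesothelial cells in the Lama3 fall was not tested.

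Among the beta chains, Lamb2 fell the most of all 10 genes. It encodes the beta2 chain of mature vessel, glomerular and synaptic basement membranes (chromosome 9, 108479847 to 108490530). Its level was 101.18, 94.03 and 91.42 TPM in sham and 27.35, 25.71 and 28.10 TPM in MI, with little spread within either group. The fall was 3.16-fold, from 282 ± 14.6 to 89.4 ± 4.57 CPM (SD, n = 3; log2 fold change -1.66 ± 0.08, SE; edgeR adjusted p = 4.40e-09). Lamb1 encodes the beta1 chain, which is the more widespread of the pair and present from early development (chromosome 12, 31265146 to 31329644). It stood at 83.37, 86.84 and 81.89 TPM in sham and at 43.83, 37.70 and 39.52 TPM in MI. Lamb1 fell 1.87-fold (log2 fold change -0.90 ± 0.08, SE; edgeR adjusted p = 4.01e-07).

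The gamma1 chain gene Lamc1 fell the least. Its product is the gamma chain shared by most laminins and carries the nidogen-binding site (chromosome 1, 153218922 to 153332786). Its level was 85.23, 88.20 and 78.71 TPM in sham and 63.27, 47.40 and 52.65 TPM in MI, where MI 1 stood above MI 2 and MI 3. The fall was 1.39-fold, from 337 ± 18.1 to 243 ± 20.7 CPM (SD, n = 3; log2 fold change -0.47 ± 0.09, SE; edgeR adjusted p = 3.64e-04). Of all tested genes, 34.8% had a fold change as low as or lower than that of Lamc1, against 11.3% for Lamb2.

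Both nidogen genes fell. Nid1, the more abundant (chromosome 13, 13437602 to 13512275), was at 110.94, 112.33 and 105.30 TPM in sham and at 45.46, 33.71 and 35.64 TPM in MI. In TPM, MI 1 was the highest MI library here, as it was for every one of the 10 genes except Lamb2, and it lay below all of sham. In CPM, MI 2 stood above MI 1 for Lama5 and Hspg2 as well. Nid1 fell 2.57-fold (log2 fold change -1.36 ± 0.09, SE; edgeR adjusted p = 4.81e-08). Nid2 (chromosome 14, 19751257 to 19811787) was at 40.76, 36.12 and 34.17 TPM in sham and 15.93, 13.76 and 14.75 TPM in MI. It fell 2.24-fold (log2 fold change -1.16 ± 0.10, SE). The span of Nid2 overlaps that of Rtraf, and no strand setting is given for the counts. The spans of Lama2, Lama3, Lama5, Lamc1 and Hspg2 also overlap other annotated genes, among them Gm8818 for Lamc1 and Mir7018 for Hspg2.

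Hspg2, which encodes perlecan, had the highest level of the 10 in both groups (chromosome 4, 137468751 to 137570630). It was at 137.23, 115.94 and 112.48 TPM in sham and at 60.27, 56.53 and 56.74 TPM in MI. Sham 1 stood above the other two sham libraries, and the MI libraries were close together. The fall was 1.88-fold, from 915 ± 99.8 to 485 ± 14.9 CPM (SD, n = 3; log2 fold change -0.91 ± 0.09, SE; edgeR adjusted p = 1.40e-06). With 10609 counts over the sham libraries and 27671 over the MI libraries, it was also the most deeply counted of the 10.

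The order of the levels changed between the groups. In sham it ran Hspg2, Nid1, Lama4, Lamb2, Lamc1, Lamb1, Nid2, Lama5, Lama2 and Lama3 by mean TPM. The ranges over the 3 libraries overlapped between Nid1 and Lama4 and between Lamc1 and Lamb1, and no other neighbours in that order overlapped. In MI the order was Hspg2, Lamc1, Lamb1, Nid1, Lama4, Lamb2, Nid2, Lama5, Lama2 and Lama3. There the ranges of neighbours overlapped between Hspg2 and Lamc1, between Lamb1 and Nid1 and between Nid1 and Lama4. Those of Lamb1 and Lama4, which are not neighbours, overlapped too. Lamc1 thus moved from the fifth place to the second and Lamb2 from the fourth to the sixth, while the lowest 4 genes kept their places.

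Ratios to Lamc1 within each library, added after seeing the data, describe how unequal the falls were. Lamc1 had been seen to fall least, so the direction of these ratios was fixed by that choice and they carry no test. The log2 ratio to Lamc1 (in TPM) fell by 1.18 for Lamb2, 0.97 for Lama4 and 0.89 for Nid1. The smallest drops were 0.34 for Lama5, 0.43 for Lamb1 and 0.44 for Hspg2. The summed alpha chains were at 136 ± 6.64 TPM in sham and 48.6 ± 5.57 TPM in MI, the summed beta chains at 179.6 ± 5.73 and 67.4 ± 3.89 TPM, and Lamc1 at 84.0 ± 4.85 and 54.4 ± 8.09 TPM (SD, n = 3). Per alpha chain TPM there were 0.597, 0.647 and 0.608 Lamc1 TPM in the sham libraries and 1.16, 1.09 and 1.09 in the MI libraries. The ratio of summed alpha to summed beta chains was 0.758 ± 0.01 in sham and 0.720 ± 0.04 in MI, and its groups overlapped (exact permutation p = 0.3). Nid1 and Nid2 together, per Lamc1 TPM, went from 1.75 ± 0.05 to 0.976 ± 0.02, and Col4a1, a collagen IV chain named outside the rule, from 9.93 ± 0.53 to 6.22 ± 0.32. These are ratios of transcripts, and protein was not measured.

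**Figure D2:**
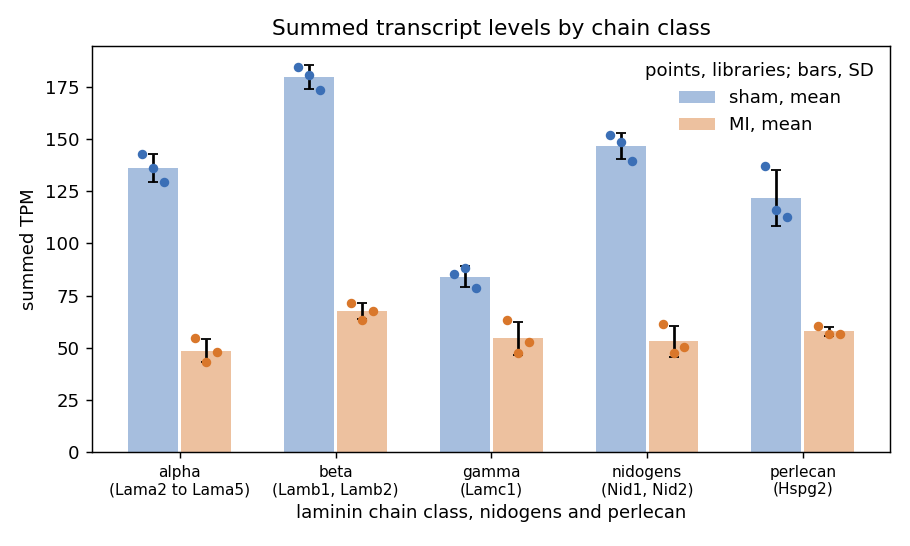
Summed TPM of the alpha, beta and gamma laminin chains, the nidogens and perlecan in sham and MI (bars, mean; error bars, SD; points, the 3 libraries of each group). The alpha and beta sums fell 2.80-fold and 2.66-fold in TPM and the gamma1 chain 1.54-fold, so that in MI the 3 chain classes lie closer together.

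Within the beta pair the balance turned over. Lamb2 held 54.8%, 52.0% and 52.7% of the beta chain TPM (Lamb1 and Lamb2) in the sham libraries and 38.4%, 40.5% and 41.6% in the MI libraries. Its share was thus the larger in every sham library and the smaller in every MI library, a difference of -13.01 percentage points (exact two-sided permutation p = 0.1, the lowest value attainable with 3 libraries a group, or 0.167 adjusted by Benjamini-Hochberg over the 5 shares tested). Among the alpha chains Lama4 held 75.6% to 78.7% in sham and 69.4% to 72.8% in MI, and Lama5 held 11.6 ± 0.81% and 16.7 ± 1.18% (SD, n = 3). Neither share overlapped between the groups (exact permutation p = 0.1 and adjusted p = 0.167 for each). The share of Lama2 was 7.25 ± 0.36% in sham and 7.58 ± 0.69% in MI, with overlapping libraries (exact permutation p = 0.6), and that of Lama3, added after seeing the data, was 4.31 ± 0.52% and 4.71 ± 0.52% (exact permutation p = 0.4). With a library left out, the Lama3 difference of 0.398 percentage points ran from 0.134 (without sham 3) to 0.686 (without MI 3). Nid2 held 25.2 ± 1.42% of the nidogen TPM in sham and 28.1 ± 1.84% in MI, and the groups overlapped (exact permutation p = 0.2, adjusted 0.25). With MI thinned to the sham depth the difference was 4.45 in place of 2.84 percentage points (exact permutation p = 0.1).

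**Figure D3:**
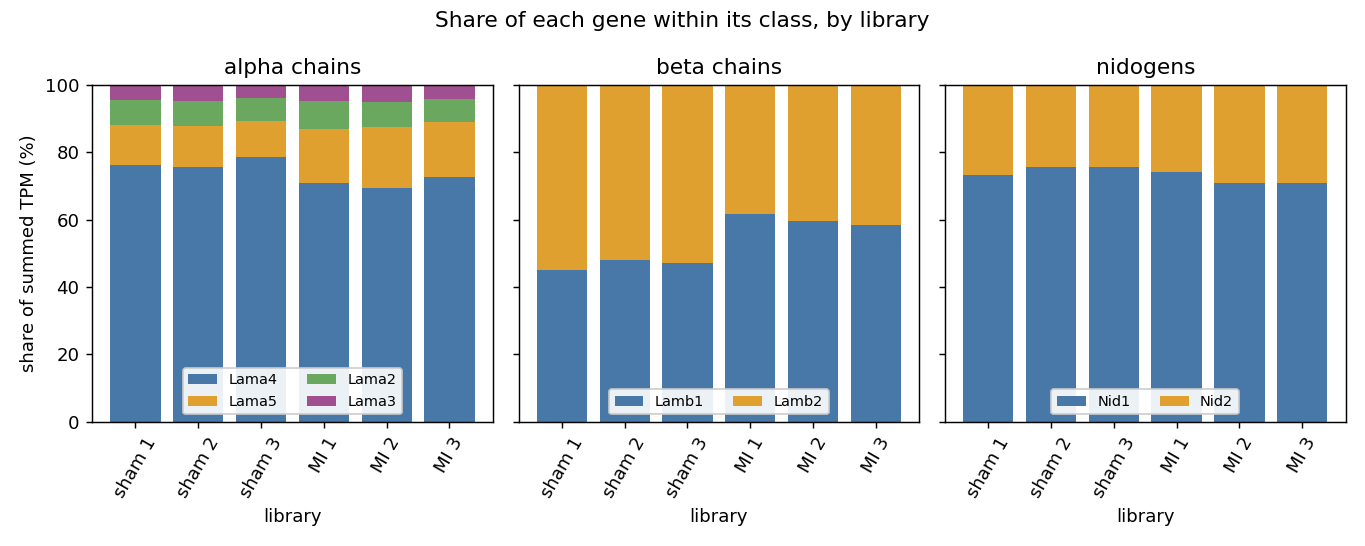
Share (%) of each gene in the summed TPM of its class, with 1 bar per library, for the alpha chains, the beta chains and the nidogens. The Lamb2 segment covers 52.0% to 54.8% in sham and 38.4% to 41.6% in MI, and Lama4 fills most of every alpha bar.

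Markers of the cells that are known to make these proteins also fell. Of all tested genes, 36.9% were called lower and 36.4% higher. All 10 endothelial markers tested fell, with a median log2 fold change of -2.08 and a range of -3.02 to -1.74. Lamb2, at -1.66 ± 0.08 (SE), came nearest to that range, and none of the 10 genes lay within it. All 8 mural markers fell (median -1.59, range -2.68 to -0.76), a range that held 9 of the 10 genes, as did all 8 cardiomyocyte markers (median -4.09), and 6 of 8 fibroblast markers fell (median -1.77) while Col1a1 and Col1a2 rose. Pdgfrb, the receptor that marks pericytes, fell 2.29-fold, Myh6, the cardiac myosin heavy chain, fell 13.2-fold, and Col1a1, a fibrillar collagen chain, rose 6.30-fold. All 9 macrophage markers rose (median 2.35), and Cd68, a macrophage lysosomal protein, rose 14.5-fold. Of 2 Schwann cell markers tested, 1 rose.

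The summed level of the marker lists shows the size of these shifts. It was 5400 to 5424 TPM in sham and 1001 to 1042 TPM in MI for the endothelial list, 2007 to 2019 and 489 to 515 TPM for the mural list, and 1936 to 1992 and 739 to 767 TPM for the fibroblast list. For the cardiomyocyte list it was 4866 to 4942 and 178 to 214 TPM, and for the macrophage list 5812 to 6152 and 24162 to 25396 TPM. No marker of these 5 lists was at 0 in all libraries of a group. The part of each cell type in the falls of the 10 genes was not tested.

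Relative to Pecam1 in the same library, all 10 genes were higher in MI, a comparison added after seeing the data. Pecam1 had been seen to fall 4.15-fold, more than any of the 10, so this direction was fixed by the choice and is given with no test. Per 100 Pecam1 TPM, Lamc1 was at 9.15, 9.31 and 8.35 TPM in sham and at 29.7, 24.2 and 25.9 TPM in MI, a ratio of 2.98. Lama5 went from 1.69 ± 0.20 to 3.95 ± 0.13 (2.34 times), Lamb1 from 8.94 ± 0.24 to 19.7 ± 0.75 (2.21 times) and Hspg2 from 12.97 ± 1.54 to 28.3 ± 0.47 (2.19 times). At the other end, Lamb2 went from 10.2 ± 0.62 to 13.3 ± 0.49 (1.30 times) and Lama4 from 11.1 ± 0.48 to 16.9 ± 1.44 (1.52 times).

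**Figure D4:**
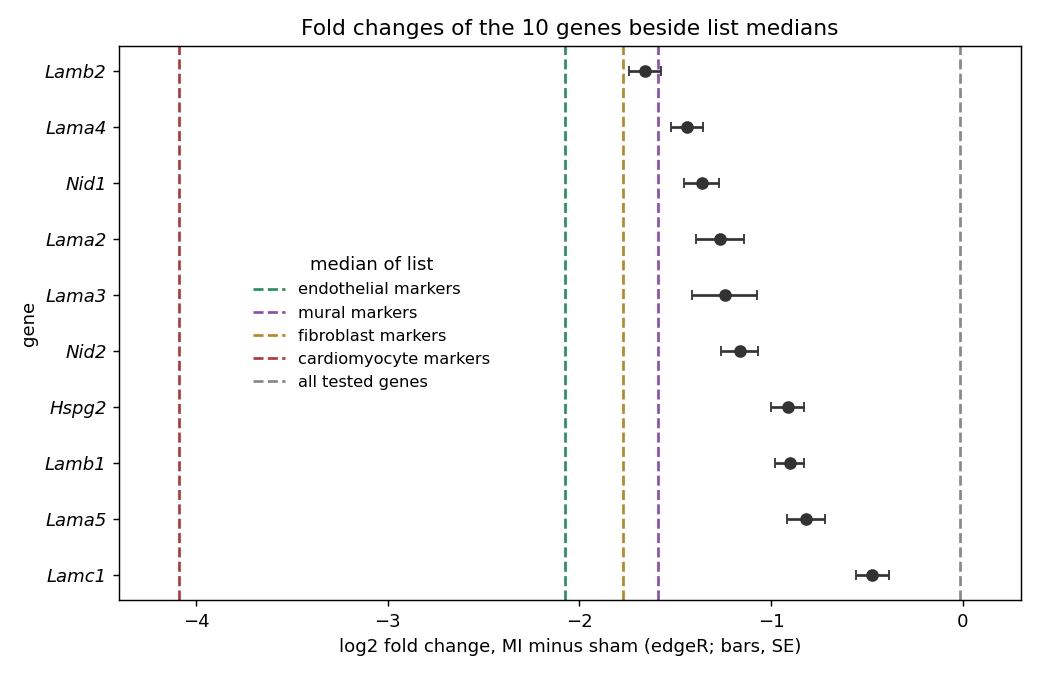
Log2 fold change (MI minus sham, edgeR) of the 10 genes with SE bars, beside dashed lines at the medians of 4 cell marker lists and of all tested genes. Every gene lies between the endothelial median (-2.08) and the median of all genes (-0.01), with Lamb2 at -1.66 and Lamc1 at -0.47.

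Other basement membrane genes also fell for the most part. Of 30 listed, 26 were tested, 19 fell and 3 rose, with a median log2 fold change of -1.50, where 36.9% of all genes were called lower and 36.4% higher. Sparc, a collagen-binding glycoprotein and one of the most abundant in the list, fell 2.72-fold from 2993 ± 52.6 to 1100 ± 78.9 CPM (SD, n = 3). Papln, which encodes the matrix protein papilin, fell 4.47-fold, and Pxdn, the peroxidase that crosslinks collagen IV, fell 2.77-fold. Ecm1, an extracellular matrix glycoprotein that can bind perlecan, went the other way and rose 7.81-fold, from 51.4 ± 5.10 to 401 ± 49.9 CPM. The other 2 that rose, named after their values were seen, were Loxl2, 1.63-fold, and Col18a1, 1.26-fold. The rise of Col18a1 was lost when libraries were scaled to their total counts. Collagen IV itself fell, with Col4a1 2.22-fold and Col4a2 1.99-fold lower, also named after their values were seen. Of the other laminin chains, Lama1 had 0 counts in sham and 2 over the MI libraries, and Lamc3 had 10 and 18 counts and was not tested.

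Receptors and linkers that tie cells to laminin went both ways. Of 25 tested, 16 fell and 6 rose (median -0.88), against the same 36.9% and 36.4% of all genes. Bcam, the Lutheran glycoprotein that binds the laminin alpha5 chain, fell 4.70-fold, from 476 ± 11.2 to 101.3 ± 13.3 CPM (SD, n = 3). Cd151, a tetraspanin that partners laminin-binding integrins, fell 3.92-fold, and Sgce, a sarcoglycan of the dystroglycan complex, fell 4.67-fold. Sdc4, a heparan sulfate proteoglycan of the cell surface, rose 4.47-fold, from 159 ± 3.87 to 712 ± 9.69 CPM. Named after their values were seen, the main laminin-binding integrin subunit genes Itga6 and Itgb1 fell 1.27-fold and 1.29-fold, and Dag1, which encodes dystroglycan, fell 1.84-fold.

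Of 16 genes for enzymes that build the laminin-binding sugar of dystroglycan, 10 fell and 3 rose (median -0.51), where 36.9% of all tested genes were called lower and 36.4% higher. None was called when a fold change above 2 was tested, and with total-count scaling 1 rise was called in place of 3. Dpm3, a subunit of the dolichol phosphate mannose synthase, fell 1.97-fold, and B4gat1, a glucuronyltransferase, fell 1.62-fold. Pomt1, which begins the sugar by O-mannosylation, rose 1.93-fold.

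Genes for proteases and a heparanase that can cut these proteins rose for the most part. Of 19 listed, 16 were tested, 11 rose and 5 fell, with a median of 3.11. The 5 that fell are 31.2% of the 16, near the 36.9% of all tested genes called lower, and 36.4% of all were called higher. Ctss, a cathepsin active outside lysosomes too, rose 12.8-fold, from 334 ± 10.9 to 4280 ± 130 CPM, and Ctsb, also a cathepsin, 12.5-fold (SD, n = 3). The metalloprotease gene Mmp19 rose 36.9-fold, from 3.71 ± 0.21 to 138 ± 3.08 CPM, and Mmp14, a membrane-bound metalloprotease that cuts laminin chains, 11.1-fold. Elane, the neutrophil elastase gene, had 0 counts in sham and 3 over the MI libraries and was not tested. Macrophage markers (median 2.35) and neutrophil markers (5 of 5 tested higher, median 3.92) rose in the same libraries. The neutrophil and protease lists share Mmp9, named outside the rule, which counts among the rises of both. The part of macrophages and neutrophils in the protease rises was not tested.

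**Figure D5:**
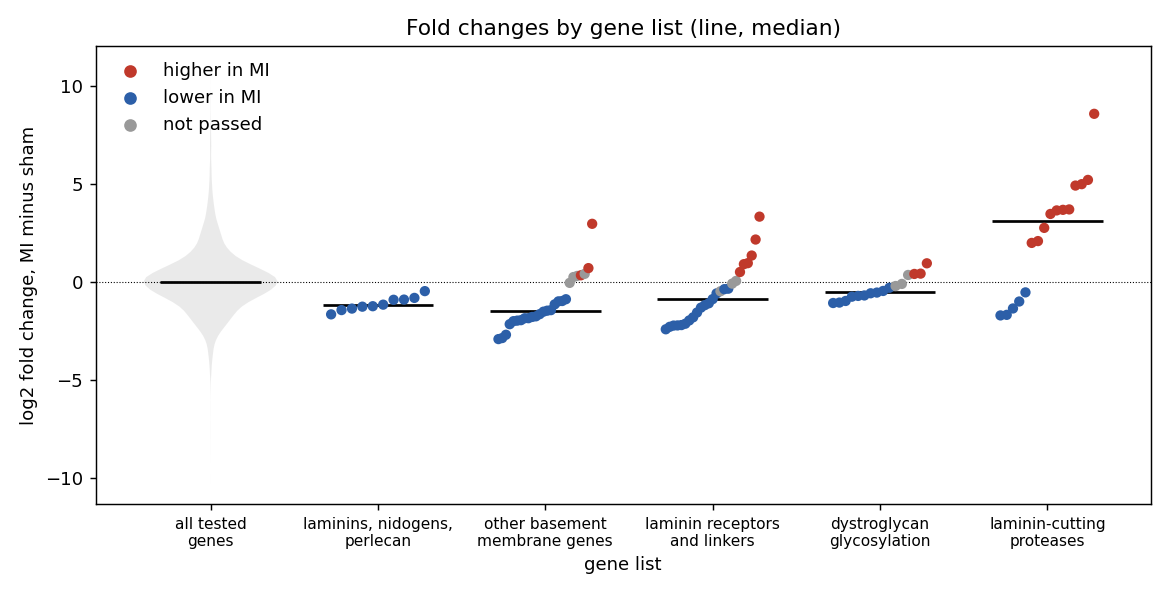
Log2 fold change (MI minus sham, edgeR) of each tested gene by list, coloured by call, with a line at the list median and the distribution of all 13370 tested genes at the left. All 10 laminin, nidogen and perlecan genes lie below 0 (median -1.20), while the protease list has a median of 3.11.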

How the data were processed

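The submitters' processing notes name the genome build GRCm38.p6 and, with no role, Agilent Feature Extraction 9.1, a microarray program. Aligner, counter, annotation, strand setting and filters are not given in the sources used here. By its column names, the deposited table holds the authors' estimated counts per gene (not scaled), their TPM and FPKM, and their normalised read count, treated as a signal and left unused. Group averages in it were not used either. Libraries were grouped by their titles. Identifiers of 17576 of 17714 genes matched RefSeq.

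Estimated counts were rounded. In R 4.3.3, edgeR 4.0.16 was run with filterByExpr (13370 genes left), TMM scaling and a quasi-likelihood fit on group alone. Standard errors were derived from each log2 fold change and its F statistic. All genes tested entered the Benjamini-Hochberg adjustment, with a threshold of 0.05. The 10 genes and the gene lists were chosen with earlier results of these data known. From each list, the up to 4 called genes with the smallest p were named, with genes at 0 counts in a group and a defining marker each (Pecam1, Cd68, Col1a1, Myh6, Pdgfrb). Prox1, Lyve1, Ccl21a, Flt4, Pdpn and Epcam were named beside the rule, for the labelled cell type and the epithelial list. Pdpn and the epithelial and mesothelial genes other than Epcam were named after their values were seen. One gene that this rule names is not reported here. Shares and ratios used TPM. The 5 planned shares, the added Lama3 share and the alpha to beta ratio were tested by exact permutation, and ratios to Lamc1 or Pecam1 are descriptions. The procedure was tested on simulated data in which few genes changed, in both directions, whereas 73.3% of tested genes were called here. That simulation therefore does not check the scaling under so broad a change. Alternatives included DESeq2 1.42.0 and limma 3.58.1. Same-numbered sham and MI libraries did not deviate together (correlations -0.05, -0.02 and 0.02), so the numbers were not treated as pairs.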

Additional observations from a re-analysis of the deposited data

How the results depend on the processing

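All 10 genes kept their direction under each alternative, and their calls under each except the test of a fold change above 2, where 4 were called (Lamb2, Lama4, Nid1 and Lama2). No gene of the 10 was called higher under any of them. That same test called 1 other basement membrane gene higher, 3 receptors higher and 10 lower, 3 proteases lower, and 0 dystroglycan glycosylation genes in either direction. The number of dystroglycan glycosylation genes called higher, 3, was 1 with total-count scaling, with MI thinned to the sham depth and with limma on log2(TPM + 1), and ran from 1 to 4 with a library left out (1 without sham 2 or without MI 3). The causes were not tested. The Lama2 share of the alpha chains, 0.32 percentage points higher in MI, ran from -0.046 (without MI 1) to 0.633 (without MI 3) with a library left out. With the replicate number as a block all 10 genes were again called lower, and no other count moved by over 1.5 times. MI libraries thinned to the sham depth also gave 10 lower. For the shares the block cannot move the difference (-13.01 percentage points for Lamb2), since the mean of 3 paired differences equals the difference of the means, and 0.25 is the smallest sign-flip p that 3 pairs allow, so it says nothing of their stability. With MI thinned to the sham depth, the Nid2 share difference was 4.45 in place of 2.84 percentage points. Depth limits Lama3 most, with 248 counts over the sham libraries.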
